A study of Drosophila melanogaster with 30 samples.

Results

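Glutathione transferases are the enzymes that join glutathione to reactive compounds. The 36 glutathione transferase genes were described here in wing imaginal discs of Drosophila melanogaster whose GAGA-associated factor (GAF) was full-length or lacked a domain. GAF is the product of Trithorax-like (Trl); it binds GAGAG motifs, the POZ domain lets GAF bind other GAF molecules, and its Q domain is rich in glutamine. The members were chosen by name: every gene of the RNA count table whose name begins Gst followed by D, E, O, S, T or Z and digits, together with the microsomal gene Mgstl, which gave 36 of 17868 genes. They fall into 11 genes of class D, 14 of class E, 3 of class O, 1 of class S, 4 of class T, 2 of class Z and 1 microsomal gene.

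The series measured chromatin contacts, GAF binding and RNA in GAF mutants, and the results given here come from its 9 wing disc RNA-seq libraries. The 3 genotypes were Halo-Trl, with Halo-tagged full-length GAF, delta-POZ, whose Halo-tagged GAF has no POZ domain, and delta-Q, whose Halo-tagged GAF has no Q domain. Each genotype had n = 3 biological replicates, each a pool of 30 discs from wandering larvae of the third instar. All groups carried the Halo tag, and every genotype was a line of its own, so line background and the deletion cannot be told apart.

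Glutathione transferases add the thiol of glutathione to electrophiles such as lipid peroxidation products and insecticides, and the conjugates are then exported from the cell. The soluble enzymes of insects fall into classes named by Greek letters (delta, epsilon, omega, sigma, theta and zeta for D, E, O, S, T and Z), while the microsomal enzyme belongs to an unrelated family of membrane proteins. Delta and epsilon genes are expanded in insects and lie in tandem clusters. In flies the transcription factor CncC, a product of the gene cnc, is held back by Keap1 and activates several of these genes under oxidative stress.

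Libraries held 57673928 to 85575887 reads in genes, and genes of the mitochondrial genome took 15.1% to 31.1% of them. A count of 3 reads, the floor used here for a gene with no read, corresponded to 0.0349 to 0.0542 CPM per library. CPM is a read count scaled to the effective size of its library. Summed over the 8 markers of wing disc epithelium, levels were 2454 to 2977 CPM in Halo-Trl, 2074 to 2640.5 in delta-POZ and 2291 to 2857 in delta-Q, and all 8 were above 1 CPM on average. Markers of other tissues were uneven between libraries. The 7 fat body markers summed to 6508 CPM in Halo-Trl 1 but 18.9 and 42.3 in Halo-Trl 2 and 3, to 36.6 to 254.5 in delta-POZ, and to 601, 1301 and 7814 in delta-Q 1, 2 and 3. The 6 prothoracic gland markers summed to 247 CPM in delta-POZ 2 and to 3.16 to 5.71 in the other 8 libraries. The 5 neuron markers summed to 64.9, 89.4 and 78.5 CPM in Halo-Trl, to 20.5, 419.7 and 23.5 in delta-POZ 1, 2 and 3, and to 11.7 to 28 in delta-Q, so that apart from delta-POZ 2 both deletion lines lay under Halo-Trl; 1 of the 5 was called higher in delta-POZ and 0 were called lower in either line. The 6 muscle markers summed to 21.3 to 26.9 CPM in Halo-Trl, 33.9 to 103.9 in delta-POZ, where 1 was called higher, and 21.6 to 39 in delta-Q. The 6 hemocyte markers summed to 118 to 299 CPM in Halo-Trl, 158 to 621 in delta-POZ and 233 to 712 in delta-Q. Of these, 2 were called higher in delta-POZ and 0 in delta-Q. The 5 adult muscle precursor markers summed to 209 to 243 CPM in Halo-Trl, 279 to 327 in delta-POZ and 226 to 247 in delta-Q. Here 1 was called higher in delta-POZ and 0 in delta-Q. Levels of Trl itself were 41.8 to 51.3 CPM in Halo-Trl, 61 to 78.4 in delta-POZ and 56.6 to 64 in delta-Q. The rise in delta-POZ was called (log2 0.54, edgeR adjusted p = 0.0234), and reads over the whole gene do not check a deletion of one domain.

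In delta-POZ discs, transcripts of 5 glutathione transferase genes fell and those of 1 rose relative to Halo-Trl. GstE12 (epsilon class) fell by 51.4%, the sigma-class gene GstS1 fell by 37.6% and the membrane-bound enzyme's gene Mgstl by 55.7%, while the scarce transcripts of GstE8 and GstD3 fell by 87.2% and 88.8%. The gene that rose, GstD5, was almost without reads in Halo-Trl and passed the filter on low counts only through its delta-POZ reads. In delta-Q, GstS1 and Mgstl fell by 43.6% and 64% and no member rose. Between the deletions, GstE12 was higher and the theta-class gene GstT3 lower in delta-Q than in delta-POZ.

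Of the 36 genes, 29 passed the filter on low counts and were tested. Called here means an adjusted p under 0.05 in edgeR's quasi-likelihood test. The 6 calls in delta-POZ compare with 10.1% of all 10359 genes tested that were called in that comparison (5.2% lower and 4.93% higher), the 2 in delta-Q with 0.656% (0.261% lower and 0.396% higher), and the 2 between the deletions with 4.6%. Groups did not overlap at 12 members in delta-POZ against Halo-Trl (7 lower, 5 higher), where 33% of all genes were so separated, at 6 in delta-Q, all lower, beside 13.1%, and at 5 between the deletions, beside 24.2%. At an unadjusted p under 0.05 there were 10, 4 and 6 members, beside 26%, 7.82% and 20.3% of all genes. The median log2 fold change of the 29 was -0.13 in delta-POZ and -0.23 in delta-Q, beside -0.01 and 0.02 over all genes. Both comparisons use the same Halo-Trl libraries, so their values are not independent. The count in delta-POZ fell to 1 without Halo-Trl 2, 2 without Halo-Trl 3, and 3 without delta-POZ 2 or delta-POZ 3. The count in delta-Q fell to 0 without any 1 of Halo-Trl 1, 2 or 3, delta-POZ 3, delta-Q 1 or delta-Q 2, and to 1 without delta-POZ 1 or delta-Q 3. The count between the deletions fell to 1 without any 1 library other than delta-POZ 2 or delta-Q 3. Without Halo-Trl 1, delta-POZ 2 and delta-Q 3 together, the libraries with the most fat body or prothoracic gland marker RNA, 5, 2 and 2 members were called in the 3 comparisons. In delta-POZ the calls of GstD5 and GstS1 were then lost and GstE1 was called higher, and between the deletions the call of GstT3 was lost and GstD1 was called lower.

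**Figure D1:**
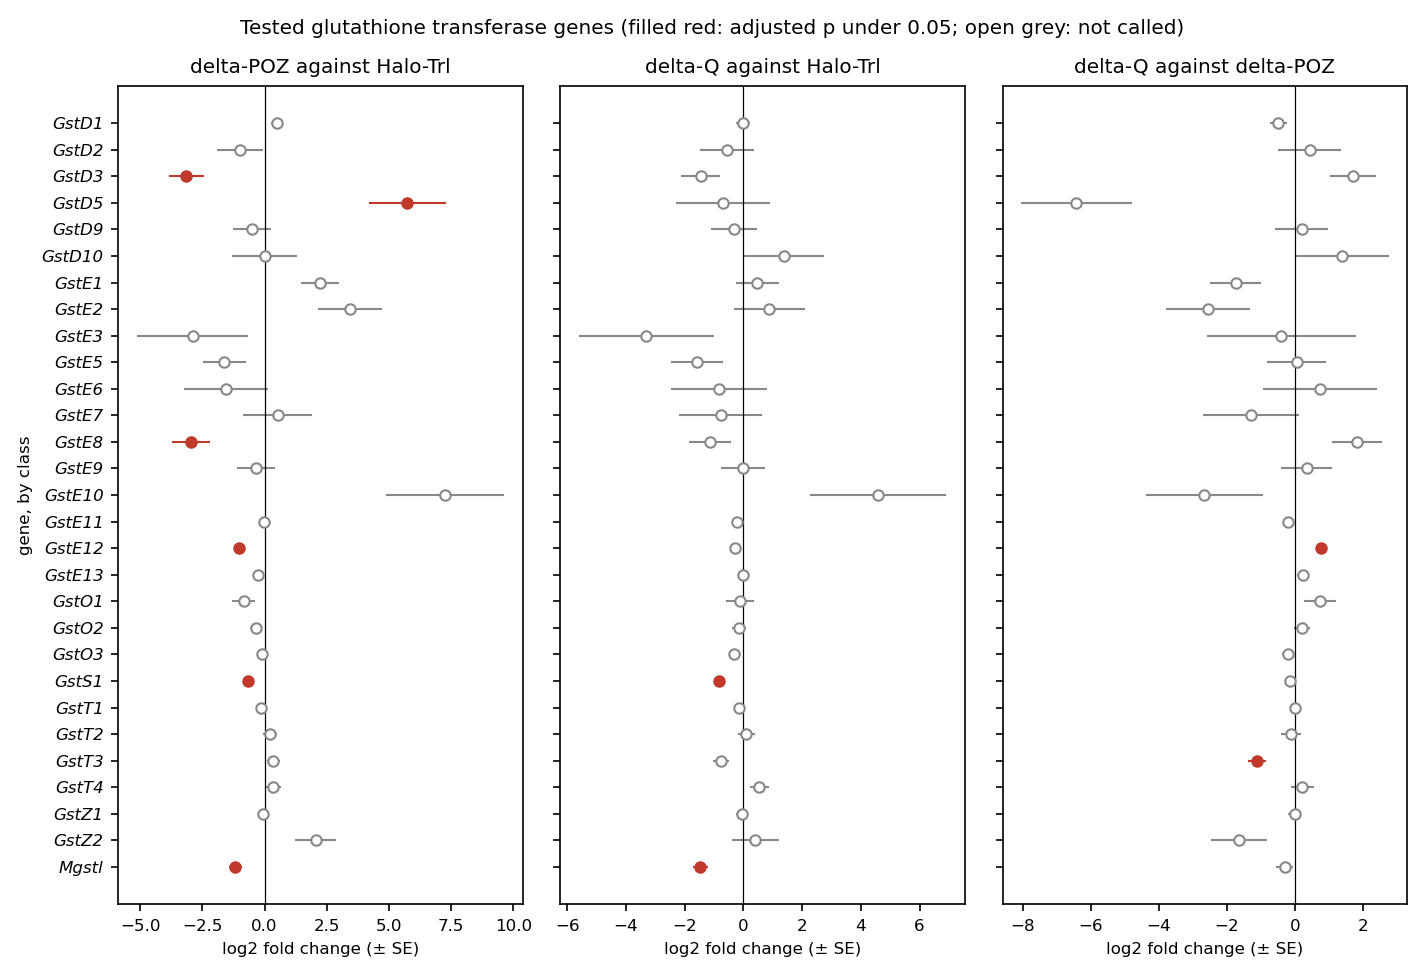
Log2 fold changes (± SE) of the 29 tested glutathione transferase genes in delta-POZ against Halo-Trl, delta-Q against Halo-Trl and delta-Q against delta-POZ, ordered by class; filled red points have an adjusted p under 0.05. Red points number 6 (1 to the right of 0), 2 and 2 in the 3 panels, and the longest error bars belong to genes with few reads.

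GstE12, an epsilon-class gene outside the main cluster, was lowest in delta-POZ. It measured 157, 127 and 122 CPM in Halo-Trl 1, 2 and 3, against 62.5, 63.2 and 71.5 in delta-POZ, while delta-Q had 102, 118 and 113. The 3 genotypes did not overlap: delta-POZ was lowest, delta-Q lay between and Halo-Trl was highest. In delta-POZ the mean was 65.8 ± 5 CPM (SD, n = 3) against 135 ± 19.1 in Halo-Trl, which is -1.04 on the log2 scale (SE 0.12, edgeR adjusted p = 7.77e-04). Between the deletions its log2 fold change was 0.76 in delta-Q relative to delta-POZ (SE 0.12, adjusted p = 0.00694). Both differences were called in each of the 20 alternatives tried, with adjusted p up to 0.00676 and 0.0432. The difference of delta-Q from Halo-Trl, 111 ± 8.07 CPM and log2 -0.29, was not called (unadjusted p = 0.0365, adjusted p = 0.566). Fewer cells that express a gene and less of its RNA per cell cannot be told apart in these pooled discs. GstE12 overlaps CG3894 in the RefSeq annotation, and the counting is not stated to use strand, so their reads may not be separable; CG3894 itself was at 8.90 CPM in delta-POZ and 8.50 in Halo-Trl on average (log2 0.07, adjusted p = 0.86). Its other neighbour, Eps-15, was not called either (log2 0.26, adjusted p = 0.453).

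GstS1, the only sigma-class enzyme of the fly and one known to act on the lipid aldehyde 4-hydroxynonenal, was lower in both deletion lines. Its levels were 334, 360.5 and 295 CPM in Halo-Trl, against 247, 172 and 198 in delta-POZ, while delta-Q had 172, 172 and 214. All 6 libraries of the deletion lines lay under the lowest Halo-Trl library. The log2 fold change was -0.68 in delta-POZ (SE 0.15, edgeR adjusted p = 0.0209) and -0.83 in delta-Q (SE 0.15, adjusted p = 0.0465). The delta-POZ call was lost without Halo-Trl 2 (adjusted p = 0.0845), without delta-POZ 2 (0.078), without delta-POZ 3 (0.0702) or with library totals in place of TMM (0.0525). Without the 3 libraries with the most fat body or prothoracic gland marker RNA the log2 fold changes were -0.55 (adjusted p = 0.0757) in delta-POZ and -0.96 (adjusted p = 0.0247) in delta-Q. The delta-Q call was lost without any 1 of the 3 Halo-Trl or 3 delta-Q libraries and without delta-POZ 3 (adjusted p up to 0.258), and with library totals (0.105), although all these fits kept the direction. The deletions did not differ detectably from each other at GstS1 (log2 -0.15, SE 0.15, adjusted p = 0.646). Its nearest tested neighbours were CG6984, not called (log2 0.05, adjusted p = 0.922), and CG30456, which rose in delta-POZ from 0.808 ± 0.558 to 4.11 ± 1.32 CPM (n = 3, log2 2.34, edgeR adjusted p = 0.0302).

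Mgstl, which encodes a membrane-bound glutathione transferase of the MAPEG family, was also lower in both deletion lines. It was at 18.6, 22.4 and 20.9 CPM in Halo-Trl, against 9.98, 6.22 and 11.2 in delta-POZ, while delta-Q had 6.17, 6.36 and 9.77. Every library of the deletion lines lay under every Halo-Trl library. The log2 fold change was -1.17 in delta-POZ (SE 0.25, edgeR adjusted p = 0.0175), a call lost without Halo-Trl 2 (0.0713) or Halo-Trl 3 (0.068). In delta-Q it was -1.47 (SE 0.25, adjusted p = 0.0306), a call lost without any 1 of the Halo-Trl libraries, delta-POZ 1 or 3, or delta-Q 1 or 2 (adjusted p up to 0.193). Without the 3 libraries richest in fat body or prothoracic gland markers the fold changes were -1.02 (adjusted p = 0.0129) and -1.82 (adjusted p = 0.00173). Mgstl overlaps the antisense RNA asRNA:CR44431, which was at 0.539 CPM or less in every library. On its other side, Ntf-2, a nuclear transport factor gene, fell in delta-POZ from 119 to 83.9 CPM (log2 -0.51, adjusted p = 0.0395), and in delta-Q its log2 fold change of -0.48 was not called (adjusted p = 0.229). The summed neuron markers were lower in both deletion lines except delta-POZ 2, a difference that came mainly from elav. Syt1 was instead higher in delta-POZ 1 and 3, at 11.5 and 14 CPM, than in Halo-Trl (3.95 to 7.63). There para was lower, at 3.23 and 4.04 CPM against 4.80 to 8.45, and nSyb and brp were not separated. Delta-POZ 2, the library with the most neuron marker RNA, had the lowest GstS1 and Mgstl levels of its genotype (172 and 6.22 CPM). The part of neural tissue in the GstS1 and Mgstl values was not tested.

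**Figure D2:**
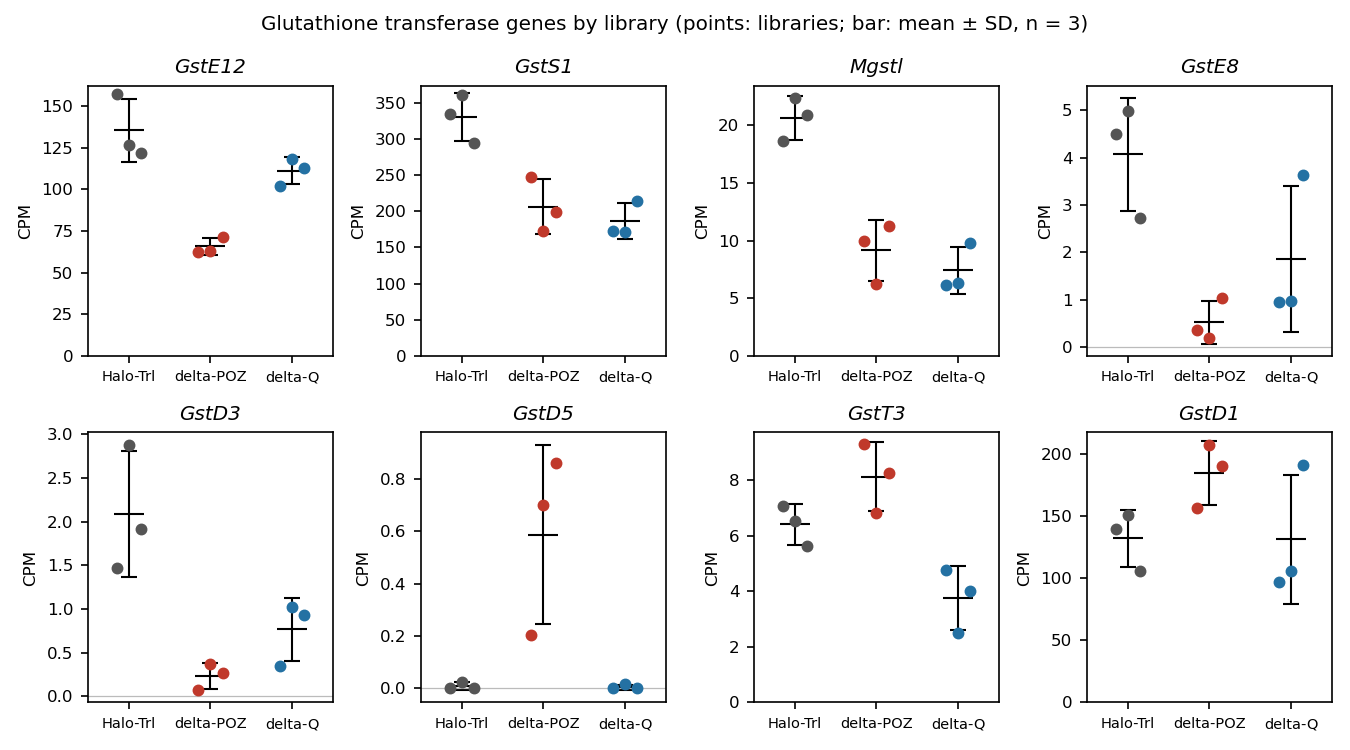
Levels in CPM of the 7 called glutathione transferase genes and of GstD1 in each library, with the mean and SD of n = 3 per genotype; each panel has its own axis. GstS1 and Mgstl are lower in both deletion lines, GstE12 is lowest in delta-POZ, and GstD5 has reads mainly in delta-POZ.

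The class D genes lie in a tandem cluster and nearly all of their reads came from GstD1, an enzyme known for metabolising DDT and a common reporter of CncC activity. GstD1 was at 139.9, 151 and 106 CPM in Halo-Trl, against 157, 208 and 191 in delta-POZ, while delta-Q had 97, 106 and 191. All delta-POZ libraries were above all Halo-Trl libraries, and the difference was not called (log2 0.48, SE 0.25, adjusted p = 0.255). In delta-Q the log2 fold change was -0.01 (edgeR adjusted p = 0.998), with delta-Q 3 alone at the delta-POZ level. Delta-Q 3 had the most fat body marker RNA, while Halo-Trl 1, the next highest in those markers, lay under Halo-Trl 2 at GstD1. The part of fat body RNA in these values was not tested. The difference of delta-Q from delta-POZ was -0.49 (edgeR adjusted p = 0.293). It was -0.86 (adjusted p = 0.0335) without delta-Q 3, and -0.81 (adjusted p = 0.0493) without Halo-Trl 1, delta-POZ 2 and delta-Q 3 together.

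The other class D genes were scarce. GstD3 had 110, 222 and 106 reads in Halo-Trl (1.48, 2.88 and 1.91 CPM), 5, 22 and 18 in delta-POZ (0.0724, 0.366 and 0.267 CPM) and 30, 63 and 57 in delta-Q (0.349, 1.02 and 0.931 CPM). Levels in both deletion lines were under those of all Halo-Trl libraries, and the fall in delta-POZ was called (log2 -3.15, SE 0.71, edgeR adjusted p = 0.0212), though not without Halo-Trl 2 (0.0861), Halo-Trl 3 (0.0666) or delta-POZ 3 (0.0642). The log2 fold change of -1.45 in delta-Q was not called (adjusted p = 0.644), nor was the difference of 1.70 between the deletions (unadjusted p = 0.0314, adjusted p = 0.196). GstD5, another gene of the cluster, had 0, 2 and 0 reads in Halo-Trl, against 14, 42 and 58 in delta-POZ, while delta-Q had 0, 1 and 0. The summed reads gave a delta-POZ level 60 times that of Halo-Trl (95% counting interval 16.2 to 502, exact binomial, covering counting error only). GstD5 passed the filter on low counts only through its delta-POZ reads, so a fall in delta-POZ was not an outcome open to the test. The rise was called (edgeR adjusted p = 0.0429), but the call was lost without any 1 of the 9 libraries (adjusted p up to 0.158). It was also lost without Halo-Trl 1, delta-POZ 2 and delta-Q 3 together (0.159), with no filter on low counts and with library totals. The difference between the deletions was not called (adjusted p = 0.0551). The nearest tested gene on its far side, CG34402, is not adjacent: the untested genes GstD6, GstD7, GstD8 and GstD11 lie between. CG34402 was at 0 CPM in Halo-Trl and 0.237 to 0.998 in delta-POZ and was not called (edgeR adjusted p = 0.0708). In delta-Q it was at 0.14, 0 and 0 CPM, so CG34402 also passed the filter on low counts only through its delta-POZ reads.

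GstD2 (0.0490 to 0.939 CPM), GstD9 (0.116 to 1.12 CPM) and GstD10 (0 to 0.555 CPM) were tested and not called in any comparison. The remaining class D genes, GstD4, GstD6, GstD7, GstD8 and GstD11, did not pass the filter. GstD8 had 0 reads in all libraries. GstD11 had 2, 20 and 2 reads in delta-POZ and 0 in the other 6 libraries. The summed delta-POZ reads were at least 8.42-fold above Halo-Trl against a floor of 3 reads over the group, a value set mainly by delta-POZ 2. GstD4 had 51 reads in delta-Q 3, 11 in Halo-Trl 2, 2 in delta-POZ 2 and 0 in the other 6 libraries. GstD6 and GstD7 had at most 20 reads in any library and 0 in Halo-Trl. How the counting treated reads that match several of these similar genes is not given in the sources used here, so values of single class D and class E cluster genes are uncertain.

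**Figure D3:**
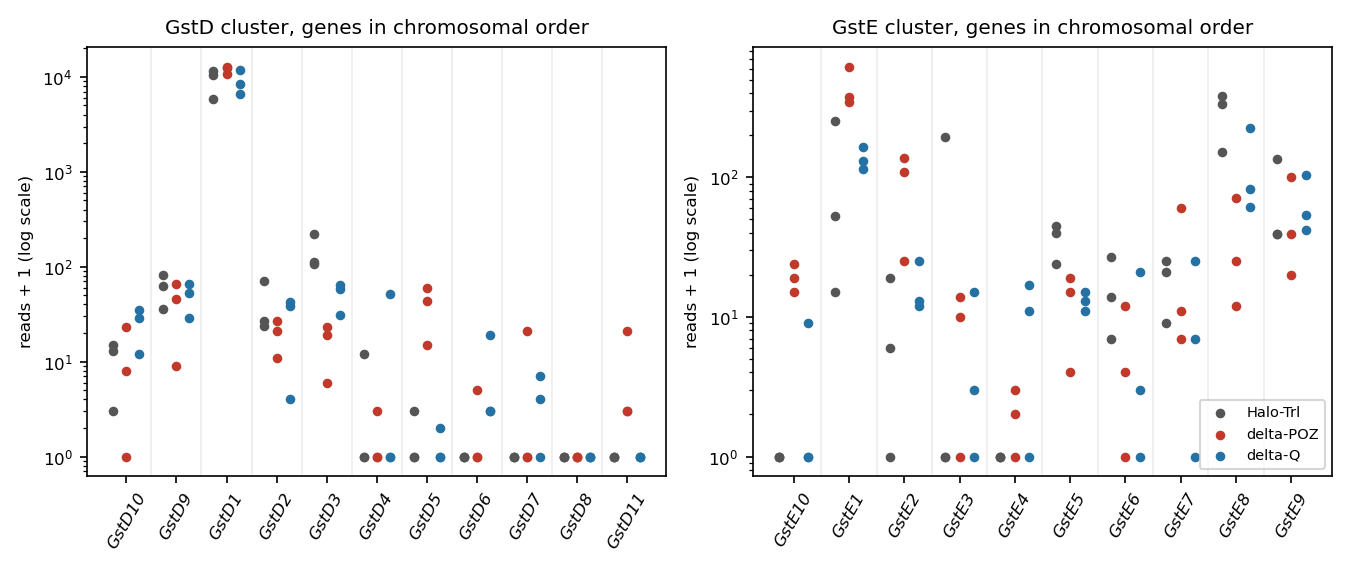
Reads plus 1 (log scale) per library for the glutathione transferase genes of the GstD cluster and the GstE cluster, in chromosomal order, with 3 libraries per genotype and no correction for depth. In the GstD cluster GstD1 stands far above its neighbours. In the GstE cluster GstE10 and GstE1, at one end, are highest in delta-POZ. GstE2, beside them, is above Halo-Trl in delta-POZ, where delta-POZ 1 equals delta-Q 2 at 24 reads. GstE8 has fewest reads in delta-POZ.

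In the GstE cluster 1 gene, GstE8, was called. GstE8 had 4.51, 4.98 and 2.73 CPM in Halo-Trl, against 0.348, 0.183 and 1.04 in delta-POZ, while delta-Q had 0.953, 0.97 and 3.64. The delta-POZ libraries were all under the Halo-Trl libraries, and the fall was called (log2 -2.96, SE 0.75, edgeR adjusted p = 0.035); the call was lost without any 1 of the Halo-Trl libraries, delta-POZ 1 or delta-POZ 2 (adjusted p up to 0.106). In delta-Q the groups overlapped and the log2 fold change of -1.13 was not called (adjusted p = 0.817), nor was the difference of 1.82 between the deletions (unadjusted p = 0.0313, adjusted p = 0.196).

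Farther along the cluster lie GstE10, GstE1 and GstE2, whose delta-POZ levels were above Halo-Trl in every library but were not called. GstE1 was at 3.41, 0.674 and 0.253 CPM in Halo-Trl, against 5.46, 5.74 and 9.2 in delta-POZ, while delta-Q had 1.31, 2.64 and 2.12 (delta-POZ against Halo-Trl log2 2.23, SE 0.78, unadjusted p = 0.0166, adjusted p = 0.102). Halo-Trl 1 was the highest of its genotype, and without that library the difference was called (log2 3.85, adjusted p = 0.00554), as it was without Halo-Trl 1, delta-POZ 2 and delta-Q 3 together (log2 3.96, adjusted p = 0.00287). Its difference between the deletions was -1.75 (unadjusted p = 0.0449, adjusted p = 0.233). GstE2 was at 0, 0.0648 and 0.325 CPM in Halo-Trl and 0.348, 2.26 and 1.6 in delta-POZ (log2 3.45, SE 1.29, edgeR unadjusted p = 0.0234, adjusted p = 0.124). In delta-Q the levels of GstE2 were 0.128, 0.388 and 0.196 CPM, which overlapped delta-POZ. GstE10 had 0 reads in Halo-Trl, against 18, 14 and 23 in delta-POZ, while delta-Q had 0, 0 and 8. The summed delta-POZ reads were at least 19.3-fold higher against a floor of 3 reads over the group (edgeR adjusted p = 0.0988). Like GstD5, GstE10 passed the filter on low counts only through its delta-POZ reads. DESeq2 called GstE1 and GstE2 higher in delta-POZ (adjusted p = 0.016 and 0.0278). GstE10 and GstE1 overlap, as do GstE9 and imd, GstE13 and CG18659, GstO2 and se, and GstT2 and CG12926, so reads from those stretches cannot be told apart without strand.

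The other genes of the cluster were scarce, and none of those tested was called in any comparison. GstE5 was at 0.297 to 0.794 CPM in Halo-Trl, 0.0499 to 0.267 in delta-POZ and 0.116 to 0.226 in delta-Q, with no overlap of either deletion line with Halo-Trl (adjusted p = 0.28 and 0.766). GstE3 had 192 reads in Halo-Trl 1 and 14 in delta-Q 3, the libraries with the most fat body marker RNA. It had 0 in Halo-Trl 2 and 3 and at most 13 in any other library. GstE4 had 10 and 16 reads in delta-Q 1 and 2 and at most 2 elsewhere, and did not pass the filter. GstE6, GstE7 and GstE9 reached at most 1.81 CPM. Outside the cluster, GstE11 (14.1 to 19.6 CPM) and GstE13 (34.9 to 60.2 CPM) were not called in any comparison, with log2 fold changes of -0.02 and -0.25 in delta-POZ.

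GstE14, known as noppera-bo and needed for ecdysteroid synthesis in the prothoracic gland, had 200 reads in delta-POZ 2, 10 in delta-Q 3 and 0 in the other 7 libraries. In delta-POZ 2 the ecdysteroid synthesis genes spok, nvd, phm and sad stood at 183, 29.6, 15.8 and 13.4 CPM, against at most 0.711, 1.19, 1.45 and 3.34 in any other library. Of the other 5 genes of that list, dib was also highest there, at 4.26 CPM against at most 0.869, spo, sro and shd lay within the range of the other libraries, and Cyp18a1, which inactivates ecdysteroids, was lowest there, at 1.10 CPM against 1.46 to 4.43. The same library set the value of GstZ2, a zeta-class gene of the family of maleylacetoacetate isomerases in tyrosine breakdown. GstZ2 was at 76.9 CPM in delta-POZ 2 and at 5.8 to 11 CPM in the other 8 libraries. Its log2 fold change of 2.05 in delta-POZ (unadjusted p = 0.0328, adjusted p = 0.151) became -0.19 (adjusted p = 0.726) without delta-POZ 2. The gene next to it, CG16779, was at 15.5 CPM in delta-POZ 2 and at most 0.323 in the others, while GstZ1, on its other side, was at 8.69 to 13 CPM in all libraries, with log2 fold changes of -0.05 in both deletion lines (adjusted p = 0.905 and 0.987). The part of prothoracic gland or neural tissue in the GstE14 and GstZ2 values was not tested.

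The theta-class genes did not differ detectably from Halo-Trl in either deletion line. GstT3 was at 7.08, 6.54 and 5.63 CPM in Halo-Trl, against 9.3, 6.82 and 8.28 in delta-POZ, while delta-Q had 4.78, 2.51 and 4.02. All delta-Q libraries were under all others, and the difference between the deletions was called (log2 -1.11, SE 0.27, edgeR adjusted p = 0.0468). That call was lost without any 1 library other than delta-POZ 2 (adjusted p up to 0.121) and without Halo-Trl 1, delta-POZ 2 and delta-Q 3 together (0.0592), and against Halo-Trl the difference of delta-Q was not called (log2 -0.77, unadjusted p = 0.0166, adjusted p = 0.425). Its neighbours RhoGAP19D (log2 0.12, adjusted p = 0.651) and tbc (log2 -1.72, adjusted p = 0.549) were not called between the deletions. GstT4 was at 30.6, 38.7 and 29 CPM in Halo-Trl, against 37.6, 42.5 and 43.3 in delta-POZ, while delta-Q had 21.3, 54.1 and 68.1, where the spread exceeded the difference (log2 0.54, SE 0.33, adjusted p = 0.805; in delta-POZ 0.33, adjusted p = 0.589). GstT1 (19.4 to 26.9 CPM) and GstT2 (2.31 to 3.47 CPM) overlapped between all genotypes.

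The omega-class genes, whose enzymes reduce dehydroascorbate, were not called. GstO3 was at 74.9, 56 and 53.2 CPM in Halo-Trl, against 42.6, 59.5 and 68.8 in delta-POZ, while delta-Q had 45.9, 48.1 and 53.5 (log2 -0.11, adjusted p = 0.77, and -0.32, adjusted p = 0.785). GstO2 was at 16.4 to 20.3 CPM in Halo-Trl and 12.4 to 15.5 in delta-POZ, without overlap (log2 -0.37, adjusted p = 0.378), and GstO1 at 0.815 to 3.54 CPM over all libraries. The fourth omega gene, sepia (se), which makes an eye pigment precursor, is named outside the rule. It had 72 reads in Halo-Trl 1 and 1 in delta-Q 3, the libraries with the most fat body marker RNA, and at most 20 elsewhere.

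Summed over a class, the reads reflected a few genes. GstS1, GstD1 and GstE12 together took 58.6% to 70.6% of the reads of all members, a share that also depends on transcript length. The class E sum was 201 to 228 CPM in Halo-Trl, 128 to 151 in delta-POZ and 165 to 188 in delta-Q, 3 ranges that did not overlap. The class D sum was 110.04 to 155 CPM in Halo-Trl, 158 to 211 in delta-POZ and 98.6 to 195 in delta-Q. All members together summed to 781 to 903 CPM in Halo-Trl, 689 to 757 in delta-POZ and 586 to 793 in delta-Q. The class O sum was 73.3 to 98.7 CPM in Halo-Trl, 59.3 to 82 in delta-POZ and 61.1 to 72.1 in delta-Q. All delta-Q libraries thus lay under all Halo-Trl libraries in class O, while delta-POZ overlapped both. Sums of class T overlapped between all genotypes, and that of class Z was 15.4 to 21.1 CPM except in delta-POZ 2, at 88.7.

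**Figure D4:**
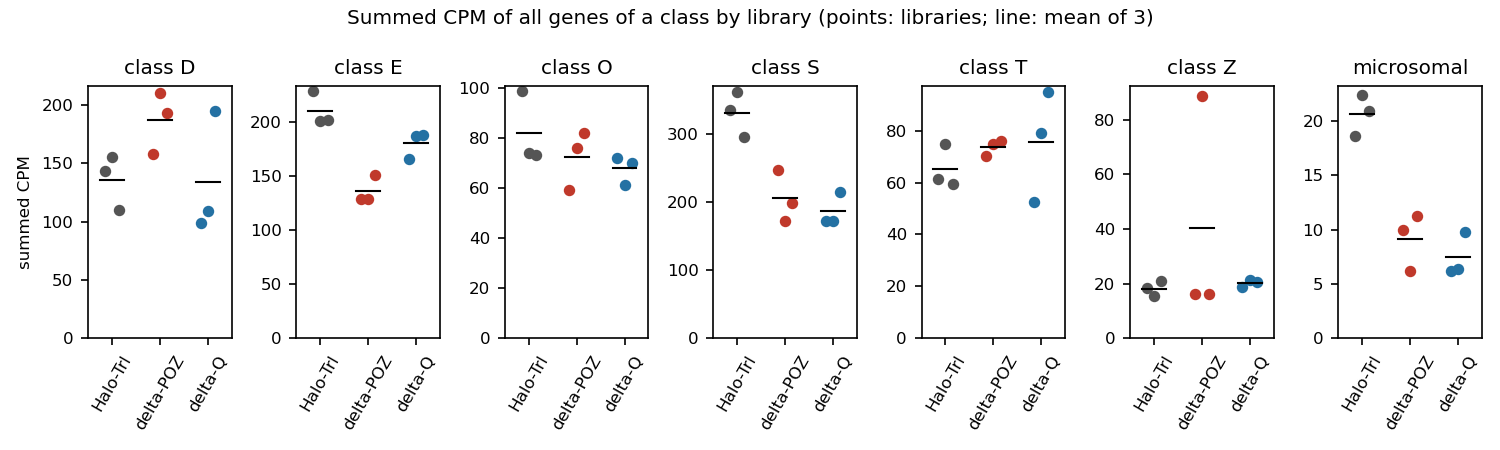
Summed CPM of all genes of a class in each library (points) with the mean of n = 3 per genotype (line); each panel has its own axis from 0. Class E, class S and the microsomal gene are lower without overlap in both deletion lines than in Halo-Trl, and class O is so in delta-Q only. Class D is higher without overlap in delta-POZ than in Halo-Trl, and 1 delta-POZ library stands apart in class Z.

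Genes that make, recycle or use glutathione with the transferases were read from lists in the same fits. Of 16 tested genes of glutathione synthesis and redox recycling, 2 rose and 2 fell in delta-POZ. Zw, the glucose-6-phosphate dehydrogenase that supplies NADPH, fell from 31.2 ± 0.543 to 22.5 ± 1.35 CPM (n = 3, log2 -0.47, edgeR adjusted p = 0.0287) and was also lower in delta-Q, at 17.9 ± 1.32 (log2 -0.80, adjusted p = 0.0144), the single call of that list there. Eip55E, a cystathionine gamma-lyase that yields cysteine, fell by 0.54 on the log2 scale (adjusted p = 0.0324), the thioredoxin gene Trx-2 rose by 0.50 (adjusted p = 0.03), and CG4829, on the list as a gamma-glutamyl transferase, rose by 2.30 (adjusted p = 0.0346). The enzyme of the first step of glutathione synthesis, Gclc, was at 13.3 to 16.7 CPM in Halo-Trl, 13.6 to 21.9 in delta-POZ and 16.1 to 16.3 in delta-Q and was not called. Between the deletions 1 gene of the list was called, Eip55E, higher in delta-Q (log2 0.69, adjusted p = 0.0194), lost without delta-POZ 2 or 3 or delta-Q 1 or 3. The 4 calls in delta-POZ became 0 without Halo-Trl 2, Halo-Trl 3, delta-POZ 2 or delta-POZ 3, 1 without Halo-Trl 1 and 2 without delta-POZ 1, and the call of Zw in delta-Q was lost without Halo-Trl 2 or 3 or delta-Q 2 or 3. Without Halo-Trl 1, delta-POZ 2 and delta-Q 3 together, CG4829 alone was called in delta-POZ and no gene of the list in delta-Q.

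Among 12 tested antioxidant enzyme genes, 1 rose and 1 fell in delta-POZ. The peroxiredoxin gene Prx2540-2 went from 0.322, 0.156 and 0.144 CPM in Halo-Trl to 3.1, 3.54 and 5.42 in delta-POZ (log2 4.26, edgeR adjusted p = 0.00223) and was at 0.256, 0.259 and 0.653 in delta-Q. It was lower in delta-Q than in delta-POZ (log2 -3.37, adjusted p = 0.00943), the single call of that list between the deletions, lost without delta-POZ 3. Prx3, a mitochondrial peroxiredoxin, fell by 0.51 on the log2 scale in delta-POZ (adjusted p = 0.0422). Prx2540-2 was called in delta-POZ whichever library was left out, and Prx3 was not called without any 1 of the Halo-Trl or delta-POZ libraries or delta-Q 2. Prx2540-1, of like name, was at 0, 0 and 0.0361 CPM in Halo-Trl and 0.42, 0.565 and 0.356 in delta-POZ, and was not called. How reads that match both genes were counted is not given either. No antioxidant gene was called in delta-Q (0 by edgeR, with 1 gene at an unadjusted p under 0.05, and 0 by DESeq2), but 1, Irc, was called without Halo-Trl 1 and without Halo-Trl 1, delta-POZ 2 and delta-Q 3 together. Of 9 detoxification regulators, 1 was called in delta-POZ by edgeR and by DESeq2: crc, the fly ATF4 (log2 0.63, adjusted p = 0.0153). That call was lost without Halo-Trl 2, Halo-Trl 3 or delta-POZ 1 and with library totals, foxo was called without delta-POZ 1, and at an adjusted p under 0.1 crc, foxo and Keap1 passed. At the main threshold cnc and Keap1 were not called: cnc was at 128 to 148 CPM in Halo-Trl, 149 to 169 in delta-POZ and 135 to 163 in delta-Q, and Keap1 at 13.5 to 16.6, 9.76 to 12.6 and 12.5 to 15.8.

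Of 49 tested cytochrome P450 genes, 2 fell and none rose in delta-POZ. They were Cyp6d4 (3.12 ± 0.118 to 0.728 ± 0.286 CPM, n = 3, log2 -2.09, edgeR adjusted p = 0.0199) and Cyp301a1 (log2 -3.34, adjusted p = 0.0262). DESeq2 called 7 genes of that list, and edgeR called 0 without Halo-Trl 2 or Halo-Trl 3, 1 without delta-POZ 1 or delta-POZ 3 and 5 without Halo-Trl 1. Of 15 tested UDP-glycosyltransferase genes, 2 rose and 2 fell, a count of 4 in every fit without 1 library. Ugt50B3 went from 7.42 ± 1.68 to 21.2 ± 1.76 CPM (log2 1.51, adjusted p = 0.00144) and Ugt37D1 rose by 3.47 on the log2 scale (adjusted p = 0.00507). Ugt302K1 and Ugt302C1 fell by 3.14 and 2.71 on the log2 scale (adjusted p = 0.00485 and 0.00542). Among 16 class B and C ABC transporters, the family that exports glutathione conjugates, CG8799, which stands in the count table under an older lethal-locus symbol, fell from 8.53 ± 1.63 to 0.217 ± 0.181 CPM (log2 -5.29, adjusted p = 0.00405). In delta-Q it was at 1.77, 0.388 and 0.523 CPM, also under all Halo-Trl libraries and not called (log2 -3.25, adjusted p = 0.125). Of 6 tested genes with a related fold or membrane family but other names, eEF1gamma, a translation elongation factor subunit with a glutathione transferase domain, fell by 0.61 on the log2 scale (adjusted p = 0.0241), a call lost without any 1 of the Halo-Trl libraries, delta-POZ 2 or delta-POZ 3, without Halo-Trl 1, delta-POZ 2 and delta-Q 3 together, and with library totals. Of 9 ecdysteroid synthesis genes, spok was called higher in delta-POZ (adjusted p = 0.0391), at 183 CPM in delta-POZ 2 and 0.058 and 0.711 in the other two. That call was lost without any 1 library other than delta-POZ 1 or delta-POZ 3, and DESeq2 called 0 genes of the list. None of 8 tested pteridine pigment genes was called by edgeR in that comparison (1 at an unadjusted p under 0.05, and 1 called by DESeq2). In delta-Q against Halo-Trl, edgeR called 0 genes of the P450, glycosyltransferase and transporter lists, with 4, 3 and 1 at an unadjusted p under 0.05 and 1 of each list called by DESeq2.

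**Figure D5:**
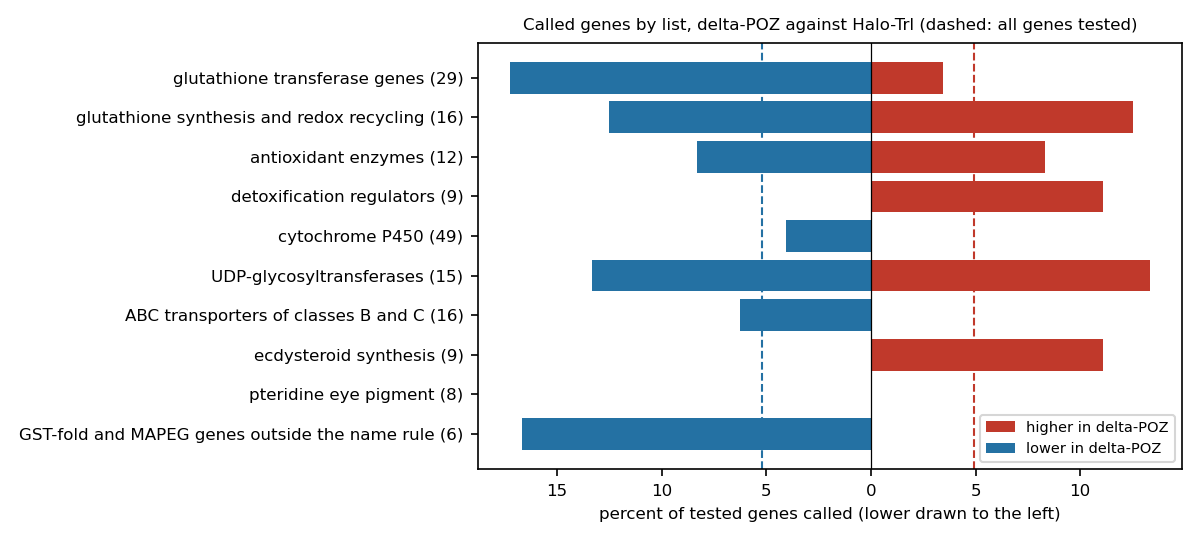
Percent of the tested genes of each list (number tested in brackets) called higher (right, red) or lower (left, blue) in delta-POZ against Halo-Trl at adjusted p under 0.05; dashed lines mark all genes tested, 4.93% higher and 5.2% lower. The glutathione transferases have 5 of 29 lower and 1 higher, and the other lists rest on 0 to 4 calls each.

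In the direct comparison of delta-Q with delta-POZ, the lists gave 1 further call higher, eEF1gamma (log2 0.67, adjusted p = 0.0289), and 1 further call lower, Ugt50B3 (log2 -1.64, edgeR adjusted p = 0.00151). The call of eEF1gamma was lost in 11 of 20 alternatives, among them the fits without any 1 library other than Halo-Trl 1 or delta-Q 3, and Ugt50B3 was called in all of them. The authors' deposited loop tables name genes at the anchors of 186 embryo loops and 209 wing disc loops, and 0 of these loops carry the name of a glutathione transferase gene.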

How the data were processed

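RNA was measured in 9 wing disc libraries, 3 per genotype. The authors deposited whole-number read counts per gene; featureCounts and DESeq2 stand in the submitters' processing notes with no version, and the strand setting and genome build are not stated there. Genes were tested from the deposited counts with edgeR 4.0.16 in R 4.3.3: filterByExpr, TMM normalization and a quasi-likelihood fit of all 9 libraries, with Benjamini-Hochberg adjustment over the 10359 genes tested and 6 residual degrees of freedom. The steps were tested on simulated data with 200 changed genes. CPM is scaled to the effective (TMM) library size, ± is SD, and SE is that of the log2 fold change. DESeq2 1.42.0, other filters and scalings and leaving out each library were alternatives; leaving out the 3 libraries together was chosen after seeing the data. Names and neighbours came from RefSeq (Release 6 plus ISO1 MT), which matched 17820 of 17868 names. The members and lists were chosen with earlier results of these data known. Named are every called member, the member of each class with the highest mean CPM, members at an unadjusted p under 0.05, tested neighbours of called members, and up to 5 called genes per list. The rest are given by range. Added with their values seen were GstE3, GstE5 and GstE14 with GstZ2's neighbours, se, Gclc, cnc, Keap1, Irc and foxo. The single neuron markers, Prx2540-1 and the uncalled ecdysteroid genes were added in the same way.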

Additional observations from a re-analysis of the deposited data

How the results depend on the processing

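The count of called glutathione transferase genes in delta-POZ against Halo-Trl, 6, ranged from 1 to 5 when 1 library was left out and was 1 at an adjusted p under 0.01, and the other alternatives gave 4 to 8. In delta-Q against Halo-Trl, 2, it ranged from 0 to 2 without 1 library, was 1 with library totals in place of TMM (GstS1 lost), and was 0 at an adjusted p under 0.01. In delta-Q against delta-POZ, 2, it ranged from 1 to 2 without 1 library and was 1 with library totals, with no filter on low counts or at an adjusted p under 0.01. The replicate numbers did not pair the libraries: 1 of 9 same-numbered pairs had deviations correlated above 0.1, and 3 of 9 libraries correlated best with their own number. With the replicate number as a block, 6, 1 and 2 members were called in the 3 comparisons (GstS1 in delta-Q had an adjusted p of 0.105), and 951, 45 and 410 of all genes. Over all genes, delta-POZ against Halo-Trl gave 1050 calls (511 higher, 539 lower), 646 (402 higher, 244 lower) with library totals and 1718 with DESeq2; the other comparisons gave 68, 44 and 248, and 477, 248 and 1070, and the last gave 263 when only its own genotypes were fitted. Fold changes of GstZ2, GstO3, GstZ1, GstD1 and GstS1 changed sign in some fits, that of GstZ2 from 2.05. For delta-POZ against Halo-Trl without 1 library, log2 ranged from -0.19 to 2.54 for GstZ2, from -0.27 to 0.062 for GstO3 and from -0.19 to 0.088 for GstZ1; GstZ1 was 0.014 with library totals, and GstZ2 and GstO3 were -0.21 and 0.038 without Halo-Trl 1, delta-POZ 2 and delta-Q 3. For delta-Q against Halo-Trl it ranged from -0.38 to 0.17 for GstD1 and from -0.19 to 0.087 for GstZ1, with 0.0037 and 0.0062 under library totals, and 0.018 for GstZ1 without those 3 libraries. For GstS1 in delta-Q against delta-POZ it ranged from -0.28 to 0.011. The cause was not tested. A gene with few reads limits the tests of most class D and class E genes.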
